A study of Mus musculus with 12 samples.

Results

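The genes described are Lpl, Pparg, Cebpa, Cebpb, Cebpd, Fabp4, Adipoq, Cd36 and Plin2, which take part in forming fat cells or in handling their lipid. They were chosen by name, and a probe set of the array stood for a gene only where it named that gene alone. All 9 had such a probe set, out of 22180 genes with 1 on the array. Lpl had 2 probe sets, and the one with the higher mean log2 intensity over the 12 arrays was used.

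The samples were mouse embryonic fibroblasts from E13.5 embryos of the strains C57Bl/6 and 129X1/SvJ, which the labels give together, and of genotype Col1a1::tetOP-OKSM ; R26-M2rtTA. All carried this inducible cassette for the reprogramming factors Oct4, Klf4, Sox2 and c-Myc (OKSM), were infected with a retroviral hairpin and were given doxycycline in serum and LIF. The 4 groups, each of 3 arrays, were the Chaf1a hairpin at day 6, the Renilla luciferase hairpin at day 6, the Chaf1a hairpin at day 3 and the Renilla hairpin at day 3. The Renilla hairpin is the control, and Chaf1a codes for a subunit of the histone chaperone CAF-1, which places histones on newly copied DNA. Cells not given doxycycline were not analysed here, so a change is between days of induction and not from the starting fibroblast. Whether each replicate had an embryo or a culture of its own is not stated, so p-values measure only the spread between these samples, which may be technical.

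Fat cell formation is run by a cascade of transcription factors. C/EBP beta and C/EBP delta, encoded by Cebpb and Cebpd, act early, and they are followed by PPAR gamma (Pparg) and C/EBP alpha (Cebpa), which keep each other on and switch on the genes of the mature cell. Those include Lpl, the secreted lipase that frees fatty acids from lipoproteins, Cd36, which takes fatty acids up, Fabp4, which carries them in the cytosol, Plin2, a coat protein of lipid droplets, and Adipoq, the hormone adiponectin. Fibroblasts of the embryo can be turned into fat cells by hormones, and C/EBP alpha is also known to speed reprogramming of B cells.

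Start regions are shown for Pparg and Plin2, which were lower at day 6 under both hairpins, and for Cebpa, which was higher at day 6 in control. The sequences are the 250 bases before each annotated start in RefSeq, build GRCm38.p6, written in the direction of the gene. Of the 9 genes, 6 matched the table, with 8 starts in all, and Pparg had 3 of them. Capitals mark 3 motifs searched on both strands, namely TTNNGCAA, a core that C/EBP factors bind, AGGTCA, a core that nuclear receptors such as PPAR gamma bind, and TATAAA, the TATA box. No match overlapped another.
Pparg, start 1, chr6:115360894-115361143, plus strand: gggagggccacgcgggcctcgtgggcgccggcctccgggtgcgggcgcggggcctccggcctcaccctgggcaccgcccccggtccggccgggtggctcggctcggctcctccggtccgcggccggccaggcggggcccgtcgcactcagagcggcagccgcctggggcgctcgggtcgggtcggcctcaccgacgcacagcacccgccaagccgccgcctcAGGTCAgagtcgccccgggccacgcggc
Pparg, start 2, chr6:115362099-115362348, plus strand: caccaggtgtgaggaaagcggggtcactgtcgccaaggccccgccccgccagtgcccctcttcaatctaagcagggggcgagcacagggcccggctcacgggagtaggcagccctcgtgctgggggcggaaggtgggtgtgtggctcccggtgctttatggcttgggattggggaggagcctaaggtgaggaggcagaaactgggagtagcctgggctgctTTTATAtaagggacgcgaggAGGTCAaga
Pparg, start 3, chr6:115421816-115422065, plus strand: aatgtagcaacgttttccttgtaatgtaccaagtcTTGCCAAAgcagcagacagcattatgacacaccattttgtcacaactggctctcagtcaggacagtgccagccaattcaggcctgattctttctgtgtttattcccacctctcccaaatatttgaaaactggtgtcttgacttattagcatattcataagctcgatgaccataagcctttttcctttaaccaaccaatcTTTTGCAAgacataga
Plin2, chr4:86670060-86670309, minus strand: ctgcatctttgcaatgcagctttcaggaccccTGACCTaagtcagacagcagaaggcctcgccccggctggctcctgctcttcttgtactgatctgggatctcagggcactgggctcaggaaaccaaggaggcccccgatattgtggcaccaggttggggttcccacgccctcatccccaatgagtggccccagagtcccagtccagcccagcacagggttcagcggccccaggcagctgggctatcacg
Cebpa, chr7:35119043-35119292, plus strand: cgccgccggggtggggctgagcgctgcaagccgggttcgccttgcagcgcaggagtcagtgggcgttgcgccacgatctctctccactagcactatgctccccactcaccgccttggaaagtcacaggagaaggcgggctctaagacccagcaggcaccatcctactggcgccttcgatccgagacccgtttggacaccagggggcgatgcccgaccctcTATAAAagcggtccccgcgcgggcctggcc

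The 3 Pparg start regions differed in letters. The third, 59717 bases downstream of the second, held TTNNGCAA 2 times, at 215 and 16 bases before the start, and the first and second held none. Of 32851 start regions of this length, 9.56% held TTNNGCAA at least once and 0.572% held it 2 times or more. AGGTCA lay 28 bases before the first Pparg start, 9 bases before the second and 218 bases before that of Plin2, and 14.0% of all start regions held it. TATAAA lay 29 bases before the second Pparg start and 30 bases before that of Cebpa, against 12.4% of all. GC content was 82.4% at start 1, 63.6% at start 2 and 40.8% at start 3 of Pparg. Mouse Pparg is known to make a widely expressed protein form from upstream starts and a fat-cell-enriched form from a downstream one. The value used for Pparg is 1 probe set for the gene and does not separate the starts. A match of letters is a description and does not show binding.

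Gene values are log2 of the deposited intensity, a scale on which 1 unit is a doubling of signal. The 30th percentile of an array lay between 4.30 and 4.38 and its median between 5.30 and 5.44. A gene was tested when it reached the 30th percentile in at least 3 arrays, which 17860 genes did. Of the 9, 6 did so in all 12 arrays, namely Lpl, Plin2, Pparg, Cebpa, Cebpb and Cebpd. Fabp4 and Adipoq were below it in all 12 arrays, and Cd36 in all but 1. Median intensities were 39.5 to 43.3 per array, and Pearson's r between arrays of a group was 0.991 to 0.995 over all probe sets.

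The targeted transcript did not pass on either day after adjustment over all genes, although its day 3 values were lower with its hairpin. Chaf1a stood at 7.04, 7.16 and 7.11 with its hairpin at day 6, against 7.06, 7.30 and 7.31 with the Renilla hairpin, and at 7.35, 7.18 and 7.19 with its hairpin at day 3, against 7.44, 7.72 and 7.42. At day 6 the hairpin shifted it by −0.12 on the log2 scale (SE 0.09, 95% interval −0.32 to 0.09, limma adjusted p = 0.999). The groups overlapped on that day. The shift at day 3 was −0.29 (SE 0.09, 95% interval −0.49 to −0.08, limma unadjusted p = 0.0098, adjusted p = 0.726). The groups did not overlap at day 3, as was so for 10.8% of all genes. At day 3, 6.01% of all genes had an unadjusted p under 0.05. Knockdown is used below as the name of the hairpin group. The protein was not analysed here.

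Cell identity was checked against marker lists. Of 12 fibroblast markers, 9 were above the array median on all 12 arrays, among them Vim, Fn1, Col1a1 and Thy1, and Lum was below the 30th percentile on all. Of 7 measured fat cell markers, Adipoq and Fabp4 were below the 30th percentile on every array, Lep and Retn never reached the median, Cidec reached it on 2 arrays, and Plin1 and Lipe were above it on all 12. The 7 fat cell markers were thus mixed. Adipogenic is used here as the name of a gene set, and no cell type is assigned from these markers. In bulk RNA, fewer cells of a type and less RNA per cell cannot be told apart.

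Between day 3 and day 6, Lpl, Plin2 and Pparg fell under both hairpins. Lpl was 3.20-fold lower at day 6 with the Chaf1a hairpin and 2.91-fold lower with the control hairpin. Plin2 was 1.77-fold and 1.68-fold lower, and Pparg 1.35-fold and 1.48-fold lower, in the same order. Cebpa was 1.31-fold higher in control, while Cebpb and Cebpd did not pass with either hairpin. Of the 6 genes tested, 0 rose, 3 fell and 3 did not pass in knockdown, where 17.9% of all genes were called, 7.46% higher and 10.5% lower. In control 1 rose, 3 fell and 2 did not pass, where 17.6% of all genes were called, 6.99% higher and 10.6% lower. The median log2 fold change of the 6 was −0.22 in knockdown and −0.28 in control, against 0.01 over all genes in each.

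**Figure D1:**
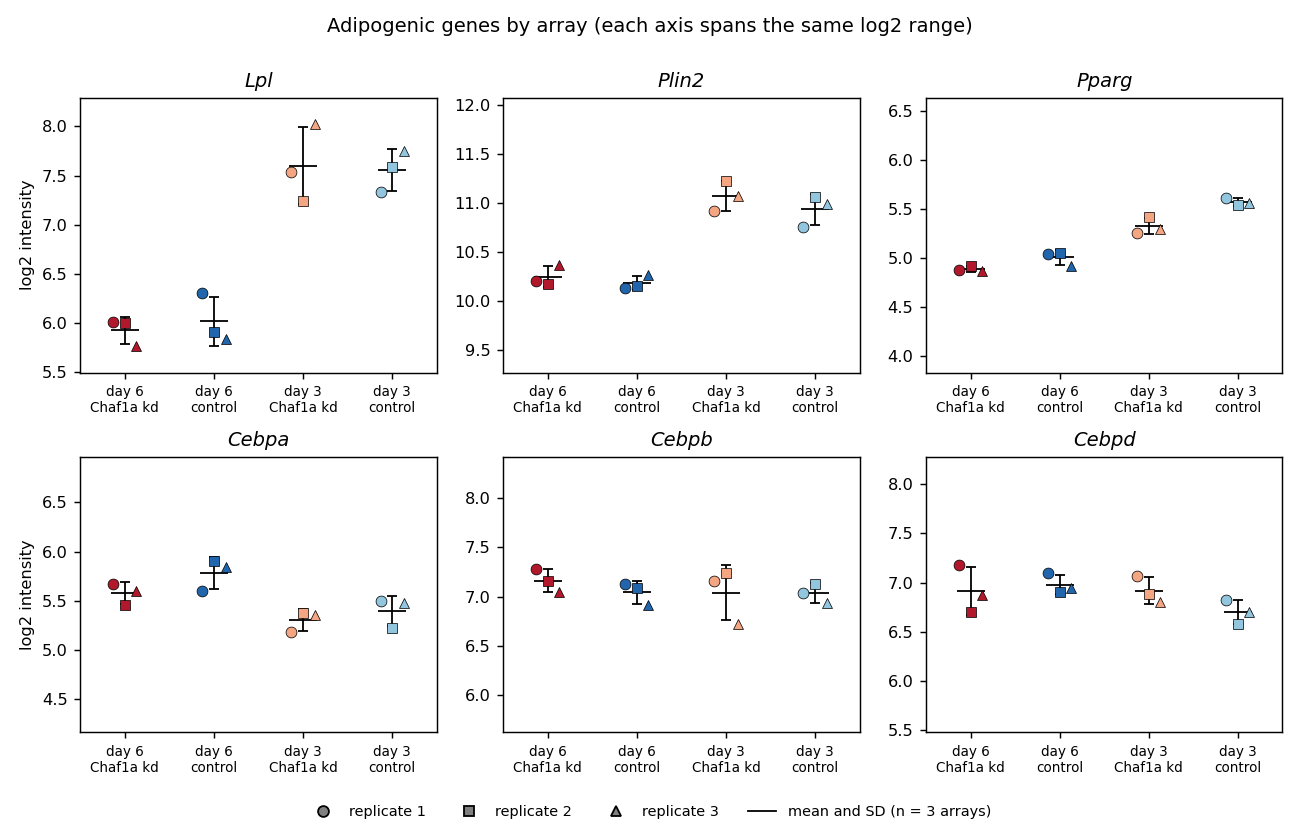
Log2 intensity of the 6 tested genes on each array, with symbols for replicate numbers and bars for the mean and SD of 3 arrays. The vertical axes differ in position but span the same range. For Lpl, Plin2 and Pparg every day 6 array lies below every day 3 array of the same hairpin, while Cebpb overlaps throughout.

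Lpl showed the widest range of the 9 genes. With the Chaf1a hairpin it stood at 6.01, 6.00 and 5.77 at day 6, against 7.53, 7.24 and 8.02 at day 3, in order of replicate number. With the control hairpin it stood at 6.30, 5.90 and 5.84 at day 6, against 7.33, 7.58 and 7.75 at day 3. All 6 day 6 arrays were below all 6 day 3 arrays, and the share of all genes split so over both hairpins was not computed. Within a hairpin, the groups did not overlap between days for 34.3% of all genes in knockdown and 35.3% in control. The gap lay between the highest day 6 value, in control replicate 1, and the lowest day 3 value, in knockdown replicate 2.

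The log2 fold change of Lpl from day 3 to day 6 was −1.68 (SE 0.18, 95% interval −2.07 to −1.28, limma adjusted p = 7.14e-05) in knockdown. In control it was −1.54 (SE 0.18, 95% interval −1.93 to −1.15, adjusted p = 1.66e-04). Counted from the most negative change of all 17860 genes, Lpl was number 4 in knockdown and number 6 in control. The 2 hairpins' changes differed by −0.14 (SE 0.26, 95% interval −0.69 to 0.42, adjusted p = 0.991), which did not pass.

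The other Lpl probe set lay near or below the low-value filter and was not used for the results above. It averaged 3.87 ± 0.04 at day 6 and 4.34 ± 0.07 at day 3 in knockdown, and 3.87 ± 0.12 at day 6 and 4.34 ± 0.21 at day 3 in control (SD, n = 3 each). It reached the 30th percentile on 2 of 12 arrays, fewer than the 3 needed to pass the filter. Fitted all the same, it had log2 fold changes of −0.47 in knockdown and −0.47 in control. These passed in limma (SE 0.09 each, adjusted p = 0.00479 and 0.00494), and were negative but smaller than those of the probe set used. A signal this low is hard to tell from background, so they give no reliable size of change.

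Plin2, the lipid droplet coat, was the next largest fall. With the Chaf1a hairpin it stood at 10.21, 10.17 and 10.37 at day 6, against 10.92, 11.23 and 11.08 at day 3. With the control hairpin it stood at 10.14, 10.16 and 10.26 at day 6, against 10.76, 11.06 and 10.99 at day 3. No day 6 array reached any day 3 array, a split over both hairpins whose share of all genes was not computed. The log2 fold change was −0.82 (SE 0.10, 95% interval −1.03 to −0.61, limma adjusted p = 1.26e-04) in knockdown and −0.75 (SE 0.10, 95% interval −0.96 to −0.54, adjusted p = 3.03e-04) in control. The changes differed by −0.07 (95% interval −0.37 to 0.22, adjusted p = 0.991).

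Pparg, the nuclear receptor at the centre of the cascade, had a signal near the array median that fell. With the Chaf1a hairpin it stood at 4.88, 4.92 and 4.87 at day 6, against 5.26, 5.42 and 5.295 at day 3. With the control hairpin it stood at 5.05, 5.06 and 4.92 at day 6, against 5.61, 5.54 and 5.56 at day 3. It reached the array median on 3 of 12 arrays. The groups of each hairpin did not overlap between days. The log2 fold change was −0.44 (SE 0.06, 95% interval −0.57 to −0.30, limma adjusted p = 5.40e-04) in knockdown and −0.56 (SE 0.06, 95% interval −0.70 to −0.43, adjusted p = 1.05e-04) in control. The changes differed by 0.13 (95% interval −0.06 to 0.32, adjusted p = 0.990).

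Cebpa, which works with Pparg in fat cells, rose in control and did not pass in knockdown. With the Chaf1a hairpin it stood at 5.67, 5.46 and 5.60 at day 6, against 5.18, 5.37 and 5.36 at day 3. With the control hairpin it stood at 5.60, 5.90 and 5.84 at day 6, against 5.50, 5.22 and 5.47 at day 3. All day 6 arrays lay above the day 3 arrays of the same hairpin, in 3 of 3 pairs each. The log2 fold change was 0.27 (SE 0.10, limma adjusted p = 0.0803) in knockdown, which did not pass, and 0.38 (SE 0.10, adjusted p = 0.0203) in control, which did. The difference between them did not pass (−0.11, 95% interval −0.42 to 0.20, adjusted p = 0.991).

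The control call of Cebpa rested on single arrays. It was lost without day 3 control replicate 2 (log2 fold change 0.30, adjusted p = 0.0861), day 6 control replicate 2 (0.32, 0.0808) or day 6 control replicate 3 (0.36, 0.0676). It was also lost without replicate 2 (0.23, 0.232) or replicate 3 (0.39, 0.154) of all groups.

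The early factors Cebpb and Cebpd did not pass with either hairpin. Cebpb ran from 7.05 to 7.28 at day 6 and from 6.72 to 7.24 at day 3 in knockdown, and from 6.91 to 7.13 at day 6 and from 6.93 to 7.13 at day 3 in control. Its log2 fold change was 0.12 (95% interval −0.14 to 0.39, limma adjusted p = 0.545) in knockdown and 0.01 (95% interval −0.25 to 0.27, adjusted p = 0.970) in control, and the groups overlapped.

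Cebpd ran from 6.70 to 7.18 at day 6 and from 6.80 to 7.07 at day 3 in knockdown, where it had a log2 fold change of 0.00 (95% interval −0.25 to 0.25, limma adjusted p = 0.997). In control it ran from 6.90 to 7.09 at day 6 and from 6.58 to 6.82 at day 3, without overlap, and the day 6 mean was 0.28 higher on the log2 scale (SE 0.12), which did not pass (adjusted p = 0.120). With replicate number as a block, the control change of Cebpd passed (SE 0.07, adjusted p = 0.0204). The difference between hairpins did not pass (−0.28, 95% interval −0.64 to 0.07, adjusted p = 0.990).

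Fabp4, Adipoq and Cd36 lay near or below the 30th percentile, where a probe set is hard to tell from background. Fabp4 ran from 3.10 to 3.58 and Adipoq from 3.51 to 4.01 over the 12 arrays. Cd36 averaged 4.01 ± 0.11 at day 6 and 4.32 ± 0.31 at day 3 in knockdown, and 4.05 ± 0.04 at day 6 and 4.15 ± 0.08 at day 3 in control (SD, n = 3 each). Its highest value was 4.62, in day 3 knockdown replicate 3, the array with the highest Lpl value. Fitted without the low-value filter, none of the 3 passed in limma, and Cd36 in knockdown came nearest (log2 fold change −0.32, adjusted p = 0.106). At this signal, that none passed does not show that these genes were unchanged.

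The order of group means differed between genes. For Lpl it ran from day 6 knockdown through day 6 control and day 3 control to day 3 knockdown, and for Plin2 from day 6 control through day 6 knockdown and day 3 control to day 3 knockdown. Neighbours that shared a day did not differ past the test, for these genes or for the others. For Pparg it ran from day 6 knockdown through day 6 control and day 3 knockdown to day 3 control. Cebpa had the lowest mean in day 3 knockdown and the highest in day 6 control. Cebpb means lay between 7.03 and 7.16, and Cebpd means between 6.70 in day 3 control and 6.98 in day 6 control.

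The hairpin against Chaf1a changed none of the 6 genes past the test. At day 6, limma called 0 of the 6, where 0.0392% of all genes were called, and 0 had an unadjusted p under 0.05, against 4.44% of all genes. At day 3 it called 0 of the 6 and 0% of all genes, and 1 of the 6, Pparg, had an unadjusted p under 0.05, as 6.01% of all genes did. The difference of the time changes called 0 of the 6 and 0% of all genes, and 0 of the 6 had an unadjusted p under 0.05, against 5.1% of all genes. The median log2 fold change of the 6 was −0.08 at day 6 and 0.02 at day 3, against −0.01 over all genes on each day.

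Pparg had the lowest unadjusted p of the 6 for the hairpin at day 3. Its log2 fold change was −0.12 (SE 0.06, 95% interval −0.26 to 0.01, limma adjusted p = 0.999) at day 6 and −0.25 (SE 0.06, 95% interval −0.38 to −0.11, adjusted p = 0.700) at day 3. The groups overlapped at day 6 and did not at day 3. Groups did not overlap for 10.6% of all genes at day 6 and 10.8% at day 3. In each of the 6 pairs of arrays with the same day and replicate number, the value with the Chaf1a hairpin was the lower of the pair. The share of all genes with such a pair count was not computed, so the count lends no support. A mean over both days, added after these values were seen, was −0.18 (SE 0.04, 95% interval −0.28 to −0.09) and did not pass either (adjusted p = 0.483).

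The other 5 genes had intervals that span 0 on both days. Lpl stood at −0.09 (95% interval −0.48 to 0.30) at day 6 and 0.04 (−0.35 to 0.44) at day 3, so a change of the size seen over time lies outside both intervals. Plin2 stood at 0.06 (−0.14 to 0.27) and 0.14 (−0.07 to 0.35), with the knockdown array higher in 6 of 6 pairs. Cebpa stood at −0.20 (−0.42 to 0.01) and −0.09 (−0.31 to 0.12). Cebpb stood at 0.12 (−0.14 to 0.38) and 0.01 (−0.26 to 0.27). Cebpd stood at −0.06 (−0.31 to 0.19) and 0.22 (−0.03 to 0.47), with the knockdown array higher in 1 of 3 pairs at day 6 and in 3 of 3 at day 3. All values are log2 fold changes, day 6 before day 3, and the limma adjusted p of each was at least 0.859. The pair counts again have no share over all genes beside them and lend no support.

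**Figure D2:**
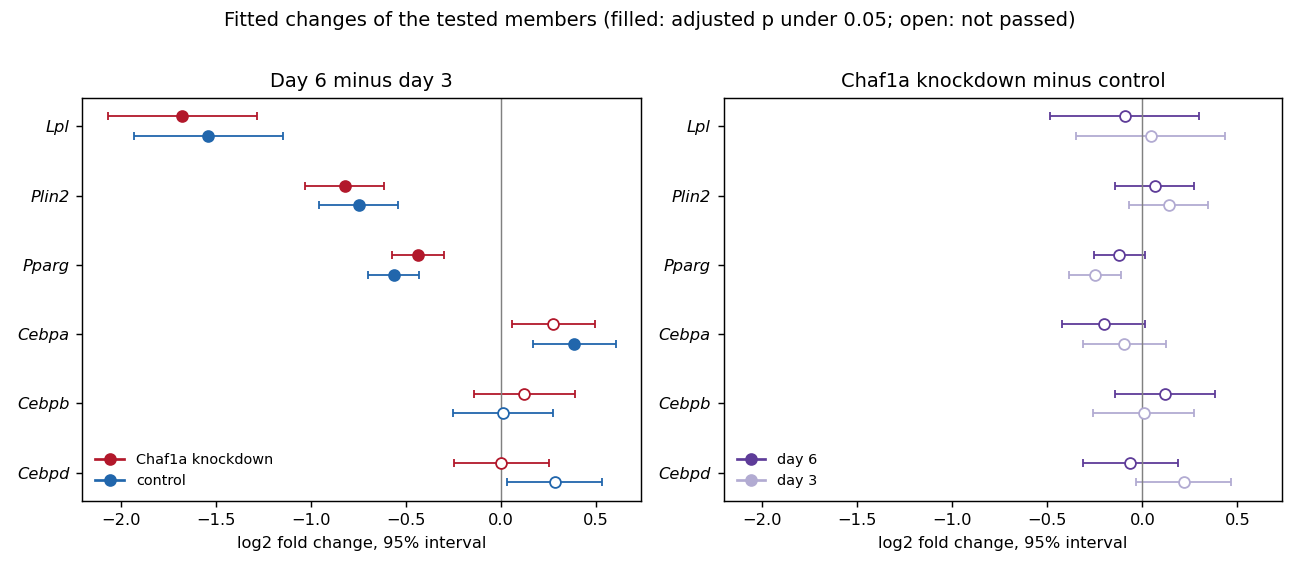
Fitted log2 fold changes with 95% intervals for the 6 tested genes, day 6 minus day 3 on the left and Chaf1a knockdown minus control on the right. Filled points passed an adjusted p of 0.05. Lpl, Plin2 and Pparg lie left of 0 over time with both hairpins, and no hairpin difference is filled.

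Wider lists of the same biology, 10 lists with 155 different genes, gave the surroundings of these changes. In the hairpin comparisons and in the difference of the time changes, limma called 0 of the 143 list genes tested, with a lowest adjusted p of 0.948 at day 6, 0.649 at day 3 and 0.918 for the difference. A gene that passed over time with 1 hairpin only was therefore not shown to differ between hairpins. Each list is given by its counts and values over time, knockdown before control, to be read against the 17.9% and 17.6% of all genes called and a median of 0.01 in each. Where a call was lost in some of 18 other settings, the number of settings it passed is given. Where a list's count moved by more than 1.5 times, its range over the settings is given, with each single array whose loss moved it so.

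Genes that take up fatty acids or handle Lpl held several falls. Of 15 tested, 1 rose, 7 fell and 7 did not pass in knockdown, and 2 rose, 4 fell and 9 did not pass in control, with median log2 fold changes of −0.27 and −0.12. Fabp5, a fatty acid carrier related to Fabp4, fell by 1.10 in knockdown and by 1.35 in control on the log2 scale (adjusted p = 3.95e-05 and 1.37e-05). It averaged 7.98 ± 0.22 at day 6 and 9.09 ± 0.01 at day 3 in knockdown, and 7.94 ± 0.15 at day 6 and 9.29 ± 0.15 at day 3 in control (SD, n = 3 each). Lipg, endothelial lipase and a relative of Lpl, had log2 fold changes of −1.23 and −1.10 (adjusted p = 5.09e-04 and 0.00124). Acsl4, which activates long-chain fatty acids, had log2 fold changes of −0.51 and −0.64, and Scarb1, a lipoprotein receptor, of −0.52 and −0.53 (adjusted p from 3.13e-04 to 0.00111). The 2 rises in control were Slc27a3 (log2 fold change 0.49, limma adjusted p = 0.0127) and Lmf1 (0.30, 0.0138). Their calls were not followed over the other settings. The knockdown count of 8 called ranged from 4 to 10, and was 5 without day 6 knockdown replicate 1 or day 3 knockdown replicate 3.

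Lipid droplet, lipolysis and triglyceride genes were mixed. Of 21 tested, 0 rose, 4 fell and 17 did not pass in knockdown, and 1 rose, 4 fell and 16 did not pass in control, with medians of 0.03 and −0.01. Abhd5, an activator of lipolysis, had log2 fold changes of −0.42 and −0.44 (adjusted p = 9.00e-04 and 6.95e-04), and Fitm2, which acts in droplet formation, −0.35 and −0.40 (0.0247 and 0.0130, passing in 11 and 16 settings). Bscl2, which encodes seipin, passed in knockdown only (−0.54, adjusted p = 7.58e-04, against −0.17, 0.181 in control). Dgat2, which makes triglyceride, passed in control only (−0.20, 0.141 in knockdown, against −0.37, 0.0122 in control, passing there in 14 settings). The difference between hairpins passed for neither (adjusted p = 0.918 and 0.990). The control count of 5 called ranged from 1 to 7, and was 3 without day 6 control replicate 1.

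Fatty acid synthesis genes had 1 rise, 1 fall and 11 not passing of 13 tested in knockdown, and 0 rises, 5 falls and 8 not passing in control, with medians of −0.07 and −0.19. Me1, which supplies NADPH, had log2 fold changes of −0.57 and −0.63 (adjusted p = 2.13e-04 and 1.32e-04). Fasn, the fatty acid synthase, stood at −0.21 (0.0644) in knockdown and −0.47 (9.78e-04) in control, and Acaca, which makes malonyl-CoA, at −0.01 (0.945) and −0.37 (0.0150, passing in 14 settings). Acss2, which activates acetate, stood at 0.39 (0.0241, passing in 11 settings) and 0.18 (0.299). None of these differed between hairpins past the test (lowest adjusted p = 0.948). The control count of 5 called ranged from 2 to 7, and was 2 without day 6 control replicate 1, 3 without day 6 control replicate 3 and 3 without day 3 control replicate 2. The knockdown count of 2 ranged from 1 to 3, and was 1 without replicate 1 or replicate 2 of either day.

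Other transcription factors of the fat cell programme mostly did not pass. Of 25 tested, 3 rose, 0 fell and 22 did not pass in knockdown, and 3 rose, 1 fell and 21 did not pass in control, with medians of 0.05 and 0.08. Klf4, one of them, is also an induced factor. Ppargc1a, a coactivator of PPAR gamma, was among the rises with both hairpins. It averaged 5.20 ± 0.15 at day 6 and 3.99 ± 0.06 at day 3 in knockdown, and 5.31 ± 0.13 at day 6 and 4.04 ± 0.18 at day 3 in control (SD, n = 3 each). Its day 3 levels lie below the 30th percentile and it was tested only through its day 6 arrays, so it had to differ and no fold or p is given. It was left out by the filter at the array median. Ppargc1a is counted in the 3 rises with each hairpin and lends them no support. Zfp423, a factor of fat cell precursors, had log2 fold changes of 0.49 and 0.40 (0.00418 and 0.0134, passing in 17 and 13 settings). Ebf1 stood at 0.33 and 0.51 (0.0565 and 0.00716, the control call passing in 17 settings), and Klf15 at 0.54 and 0.30 (0.0446 and 0.275, the knockdown call passing in 9). Ebf1 and Klf15 both act in fat cell differentiation. With replicate number as a block, the control count was 7 in place of 4. It ranged from 1 to 7, and was 2 without day 3 control replicate 3, and the knockdown count of 3 ranged from 1 to 4.

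Inhibitors of fat cell formation had 2 rises, 1 fall and 13 not passing of 16 tested in knockdown, and 1 rise, 1 fall and 14 not passing in control, with medians of 0.06 and 0.16. Gata2, which represses Pparg in preadipocytes, had log2 fold changes of −0.82 and −0.91 (adjusted p = 0.00222 and 0.00132, the control call passing in 17 settings). Nr2f2, an orphan nuclear receptor, stood at 0.20 and 0.40 (0.0491 and 0.00126). Its knockdown call passed in 4 settings and was lost with replicate number as a block (adjusted p = 0.0634). Sox9, a cartilage factor, stood at 0.39 and 0.14 (0.0336 and 0.458, the knockdown call passing in 11 settings). The control count of 2 called ranged from 1 to 5, with 5 under array weights and 4 with only the groups compared or a second quantile normalisation. The knockdown count of 3 ranged from 1 to 3, and was 1 without replicate 1 or 2 of day 6 or without replicate 2 or 3 of day 3.

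Secreted and surface products of mature fat cells mostly did not pass. Of 16 tested, 1 rose, 2 fell and 13 did not pass with either hairpin, with medians of 0.02 in each. Adipor2, an adiponectin receptor, had log2 fold changes of 0.49 and 0.36 (adjusted p = 0.00190 and 0.0125, passing in 17 and 15 settings). Adipor1, the other receptor, had −0.22 and −0.20 (0.0217 and 0.0327, passing in 9 and 8). Cav1, a caveolar protein, stood at −0.47 and −0.37 (5.02e-04 and 0.00251, the control call passing in 16 settings). These 3 genes are widely expressed, and Plin1, Lipe and Cidec, which mark mature fat cells, did not pass. The knockdown count of 3 called ranged from 1 to 3, and the control count of 3 from 0 to 4.

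Preadipocyte markers moved both ways. Of 11 tested, 3 rose, 4 fell and 4 did not pass in knockdown, and 3 rose, 3 fell and 5 did not pass in control, with medians of −0.01 and 0.19. Cd34 rose by 1.04 and 1.08 on the log2 scale (adjusted p = 5.22e-04 and 4.69e-04) and Pdgfrb by 0.91 and 1.11 (0.00375 and 0.00123). Cd24a, which is also an early surface marker of many epithelial and stem cells, fell by 0.68 and 0.89 on that scale (2.83e-04 and 4.87e-05). The knockdown count of 7 ranged from 3 to 7, and was 4 without replicate 2 of either day. The control count of 6 ranged from 3 to 7, and was 3 without day 3 control replicate 3.

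**Figure D3:**
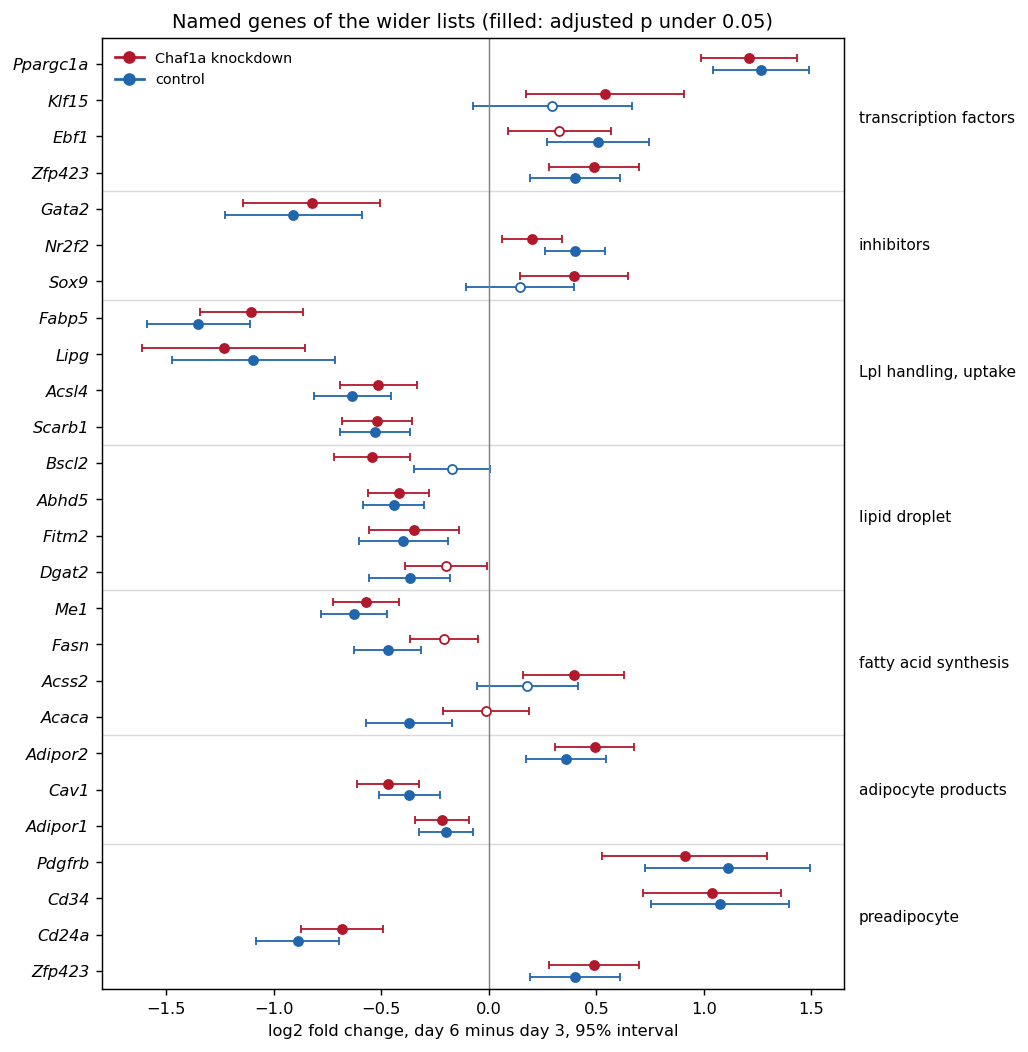
Log2 fold changes from day 3 to day 6 with 95% intervals for the named genes of 7 lists, Chaf1a knockdown above control for each gene. Filled points passed an adjusted p of 0.05. Fabp5 and Lipg lie near −1 and Cd34 and Pdgfrb near 1 with both hairpins, and the points of Ppargc1a are taken against day 3 levels below the low-value filter.

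Markers of other cells that make Lpl or Cd36 were read beside these results. Of 12 macrophage markers, 11 were tested, and 1 rose, 2 fell and 8 did not pass in knockdown, against 1 rise, 1 fall and 9 not passing in control. The median log2 fold changes were −0.18 and −0.09, and 7 of the 11 were negative in knockdown and 9 in control. Their summed intensity was 673 to 710 in day 6 knockdown and 988 to 1015 in day 3 knockdown, and 642 to 689 in day 6 control and 920 to 957 in day 3 control. The sums of all 12 were lower at day 6 than at day 3 with both hairpins, without overlap, and this rested on Cd68. Without Cd68 the sums were 443 to 468 in day 6 knockdown and 434 to 483 in day 3 knockdown. In control they were 445 to 464 at day 6 and 447 to 476 at day 3. These sums overlapped between days with both hairpins. Cd68, a lysosomal protein, had log2 fold changes of −1.23 and −1.19 (adjusted p = 5.39e-07 and 9.56e-07), Itgam of −0.50 and −0.32 (0.00598 and 0.0549, the knockdown call passing in 17 settings) and Mertk of 0.45 and 0.42 (0.0279 and 0.0359, passing in 11 settings each). Lyz2, lysozyme, stood at −0.54 and −0.86 (0.271 and 0.0769), which did not pass, and is named after its values were seen. Its groups did not overlap in control, as was so for 35.3% of all genes. Of the 12, 3 were at or above the array median on all arrays, namely Cd68, Mertk and C1qa, Itgam reached it on 5 and Lyz2 on 3. The other 7, Adgre1, Csf1r, Ptprc, Mrc1, Fcgr1, Aif1 and Cd14, were below it on all. The part of macrophages in the fall of Lpl was not tested. With replicate number as a block, the control count was 4 in place of 2. It ranged from 1 to 4, and was 1 without day 6 control replicate 1 or day 3 control replicate 3, and the knockdown count of 3 ranged from 1 to 4.

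Of 12 endothelial markers, 11 were tested, and 2 rose, 0 fell and 9 did not pass with either hairpin. Kdr, the main VEGF receptor, rose by 1.25 and 1.00 on the log2 scale (adjusted p = 3.92e-05 and 2.41e-04), and Cdh5, VE-cadherin, by 0.51 and 0.40 (0.00535 and 0.0207, passing in 17 and 14 settings). Their summed intensity was 1521 to 1583 in day 6 knockdown and 1525 to 1595 in day 3 knockdown, and 1390 to 1571 in day 6 control and 1489 to 1588 in day 3 control. Emcn was below the 30th percentile on all arrays, and 5 of the 12 were below the median on all. The count of 2 called ranged from 1 to 2 with each hairpin, and was 1 in control without replicate 3 of either day.

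Of 11 fibroblast markers tested, 0 passed with either hairpin, with medians of 0.09 and 0.15. Vim stood at −0.03 and 0.03 and Fn1 at 0.13 and 0.03 (adjusted p at least 0.189). Their summed intensity was 21841 to 23415 in day 6 knockdown and 21369 to 22704 in day 3 knockdown, and 22611 to 24026 in day 6 control and 22061 to 23003 in day 3 control. The part of these cell shares in the results was not tested. The fibroblast marker count of 0 in knockdown was 1 without day 6 knockdown replicate 3. Fat cell markers summed to 244 to 265 in day 6 knockdown and 236 to 249 in day 3 knockdown, and 244 to 259 in day 6 control and 226 to 260 in day 3 control.

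Genes whose values lay closest to those of Lpl, after each gene's own mean was taken off, were Cnn1, Osbp2 and Ptgs2. The root mean square difference from Lpl over the 12 arrays was 0.20, 0.22 and 0.24 on the log2 scale, against an SD of 0.83 for Lpl itself. Cnn1 encodes calponin, an actin-binding protein of smooth muscle, Osbp2 an oxysterol-binding protein, and Ptgs2 a prostaglandin synthase. From day 3 to day 6 the log2 fold changes, knockdown before control, were −1.79 and −1.49 for Cnn1, −1.37 and −1.23 for Osbp2 and −1.62 and −1.56 for Ptgs2. They were chosen for this likeness, so their changes are a description, and the arrays share the split between days.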

How the data were processed

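RNA of 12 samples of mouse embryonic fibroblasts was hybridised to an Affymetrix mouse array, and 1 table of 41345 probe sets was used. Its values are intensities on a linear scale, deposited by the authors. The submitters' processing notes name RMA and the program Affymetrix Expression Console, version 1.3.0.187. RMA corrects background and makes the distributions of the arrays alike, so a shift of all genes together would not be seen. The log2 of the deposited intensity was taken here, with no pseudocount. No slide or scan date was used, and the number of arrays limits the precision.

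Platform annotation gave 1 gene to 23521 probe sets, several to 1814 and none to 16010. Each gene had its probe set with the highest mean, which for 1082 genes meant a choice. limma 3.58.1 (R 4.3.3) was fitted to 17860 genes on all 12 arrays, with 1 mean per group and no block, and p-values were adjusted by Benjamini-Hochberg over all of them with a threshold of 0.05. The prior had 4.37 degrees of freedom, beside 8 residual ones. Tables and figures used Python 3.11.15, pandas 2.3.3 and matplotlib 3.10.9. The fit was tested on simulated data.

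The labels give replicate numbers and state no pairing, and arrays of the same number were taken here as pairs. Deviations from group means of same-number arrays correlated in all 12 pairs, with r from 0.14 to 0.37, so a fit with the number as a block was run. Other alternatives were a pseudocount of 16, other low-value filters, only the groups compared, a second quantile normalisation, array weights, the mean of probe sets, a trended robust prior and leaving out arrays.

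The genes and lists were chosen with earlier results of these data known. Named genes were all 9 members and, per list, up to 4 that passed over time with the largest change in either hairpin, or the 2 with the highest level where fewer than 2 passed. Likeness was the root mean square difference of centred values, for members whose group means spanned at least 1.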

Additional observations from a re-analysis of the deposited data

How the results depend on the processing

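The falls of Lpl, Plin2 and Pparg from day 3 to day 6 passed under all 18 alternatives with both hairpins, 9 of which left out arrays. Under the filter at the array median, Pparg was tested only through its 3 day 3 control arrays, so that setting lends its fall no support. The count of genes called for the hairpin at day 6 was 7, and 2 with only the groups compared and 0 to 8 when arrays were left out. The time comparisons called 3200 genes in knockdown, 1068 to 2610 with arrays left out, and 3140 in control, 1072 to 2808 with arrays left out. The difference of the time changes called 0, and 0 to 2 with arrays left out. The hairpin averaged over both days called 0, against 2 with the replicate block, 4 with a pseudocount of 16, 3 with array weights, 2 with a trended robust prior and 0 to 2 with arrays left out. The replicate block raised the members called over time in control to 5 in place of 4, by Cebpd, and changed the call of no other member. Signs turned for values near 0. Cebpd over time in knockdown was −0.0161 after a second quantile normalisation and −0.025 with array weights, and Cebpb for the hairpin at day 3 was −0.0028 with array weights. With arrays left out, the hairpin difference at day 6 ran from −0.18 to 0.051 for Lpl and −0.19 to 0.047 for Cebpd. At day 3 it ran from −0.17 to 0.24 for Lpl, −0.22 to 0.0176 for Cebpa and −0.0941 to 0.17 for Cebpb, and averaged over days from −0.13 to 0.0646 for Lpl. The time change ran from −0.0372 to 0.23 for Cebpb and −0.13 to 0.11 for Cebpd in knockdown, and from −0.0414 to 0.0748 for Cebpb in control. The difference of the time changes ran from −0.42 to 0.0749 for Lpl, −0.15 to 0.0131 for Plin2, −0.36 to 0.14 for Cebpa and −0.0472 to 0.21 for Cebpb. The causes were not tested. Signal limits Fabp4, Adipoq and Cd36, which lay near or below the 30th percentile.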
